A study of Mus musculus with 3 samples.

Results

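The 7SK RNA and the proteins that work with it in the control of transcription elongation were described in mouse IDG-SW3 cells treated with parathyroid hormone (PTH). The set was a fixed list of 8 gene symbols, the noncoding RNA gene Rn7sk and 7 protein-coding partners (Larp7, Mepce, Hexim1, Hexim2, Cdk9, Ccnt1 and Ccnt2). All 8 were present among the 25410 symbols of the data, and 7 of them had counts. The list was chosen by the measured level of Rn7sk in these same libraries, the highest of all symbols, so the levels below are a description of these libraries and carry no test.

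The samples were 3 RNA-seq libraries, replicates 1, 2 and 3, of IDG-SW3 cells at day 35 of differentiation, exposed to 100 nM PTH for 24 h. IDG-SW3 is a single conditionally immortalized line, which limits it as a model of osteocytes: it is grown at a permissive temperature with interferon-gamma and then matured without interferon-gamma in medium with ascorbic acid and beta-glycerol phosphate. Ribosomal RNA was depleted from total RNA with no selection for poly(A) tails, which 7SK does not carry. All 3 libraries carried the hormone, and vehicle-treated cells were not analysed here, so no effect of PTH was measured.

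7SK is a short nuclear RNA made by RNA polymerase III. It is the scaffold of a ribonucleoprotein that holds the kinase P-TEFb (Cdk9 with cyclin T1 or T2) in an inactive state through HEXIM proteins, while MEPCE caps its 5′ end and LARP7 protects its 3′ end. Free P-TEFb phosphorylates RNA polymerase II and the factors that hold it paused near the start of genes, which lets elongation proceed.

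The ends of the 7SK sequence are shown because they carry known contacts with its partners. The annotated mouse transcript has 331 bases (GENCODE M21, build GRCm38, chromosome 9) and is written 5′ to 3′ as DNA, from base 1 to 100 and from base 272 to 331. Capitals mark each GATC, a motif known from human 7SK as part of the HEXIM binding site, and the run of T at the 3′ end, where LARP7 binds.
Rn7sk 5′ end: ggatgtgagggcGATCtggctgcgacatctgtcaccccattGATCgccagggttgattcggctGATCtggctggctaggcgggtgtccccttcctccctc
Rn7sk 3′ end: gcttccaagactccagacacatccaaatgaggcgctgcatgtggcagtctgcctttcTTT
GATC (its own reverse complement) began at bases 13, 42 and 64 counted from the 5′ end, and the transcript holds no other. Among 7816 transcripts of other genes that are 281 to 381 bases long, 66% held GATC and 9.29% held it at least 3 times, and 2% ended in the same 3 T. A match of these letters is a description and not evidence of binding in these cells.

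Near-identical copies limit what the Rn7sk count can mean. In the annotation, 39 other genes had transcripts that matched 7SK over at least 100 bases at 80% identity or more, up to Gm24447 with 241 bases at 100% identity. Of the windows of 35 bases along 7SK, 70.7% also occurred in transcripts of 14 other genes. None of the 39 was listed in the files, and the treatment of reads with several matches is not given in the sources used here. The Rn7sk value is therefore uncertain as a measure of the one 7SK gene. Among the partners, 18.8% of Larp7 windows recurred in other genes, against 2.98% for Cdk9, 2.34% for Ccnt1, 1.09% for Mepce and 0.137% for Ccnt2 on the same strand. Hexim1 shared 0.0289% of its windows, and Hexim2 shared 0 of 2398. Ccnt1 shared a further 8.59% on the other strand, and 9.40% of its exonic bases overlap the antisense gene 9330020H09Rik, which had 100, 141 and 210 counts in replicates 1, 2 and 3.

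The libraries held 35195518, 37299517 and 45240005 counts in replicates 1, 2 and 3. Although RPKM stands in the file names, the deposited values were integers and were treated as raw counts. The files give a symbol 1 row or several, which were summed; symbols with several rows are marked below with their number. RPKM was computed from them as counts per kilobase of transcript, scaled to the same library total, and errors are SDs (n = 3 libraries). The design text calls the replicates biological without saying how the cultures were kept apart. Of 15 markers of the osteoblast and osteocyte lineage, 11 had means of at least 1 RPKM, from 1.25 ± 0.0471 for Runx2 (3 rows) to 6409 ± 408 for Sparc. Among genes known from osteocytes, Pdpn stood at 156 ± 27.6 and Phex at 9.05 ± 0.940 RPKM. The 4 markers under 1 RPKM were also osteocyte genes, Dmp1 (0.652 ± 0.547), Mepe (0.436 ± 0.216), Fgf23 (0.266 ± 0.0816) and Sost (0.00917 ± 0.0159), the last with 2 counts in replicate 1 and none in the others. Of 7 markers of other cell types, Plin1 and Pecam1 (2 rows each) were at 0 and the highest was the adipocyte gene Adipoq at 1.88 ± 1.16 RPKM. In such bulk libraries, fewer cells that express a gene and less RNA per cell cannot be told apart.

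Rn7sk was the most abundant symbol in every library. It had 1775104, 2297550 and 2331775 counts in replicates 1, 2 and 3. These were 5.04% (exact 95% binomial interval 5.04 to 5.05), 6.16% (6.15 to 6.17) and 5.15% (5.15 to 5.16) of all counts. The intervals reflect counting error alone and leave out variation between libraries. PCR copies could not be told from separate molecules, so the intervals may be too narrow even for counting error. Replicate 2 was the highest by share and the other 2 lay close together. The next symbol by count was Malat1, a nuclear RNA made by RNA polymerase II, and Rn7sk had 2.12, 2.29 and 2.50 times its counts. Per length, Rn7sk stood at 152373, 186095 and 155717 RPKM, a mean of 164728 ± 18579. With an effective length (the length minus an assumed fragment of 150 bases, plus 1), the same counts gave 299588 RPKM. The level of so short an RNA thus depends on how its length is taken.

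**Figure D1:**
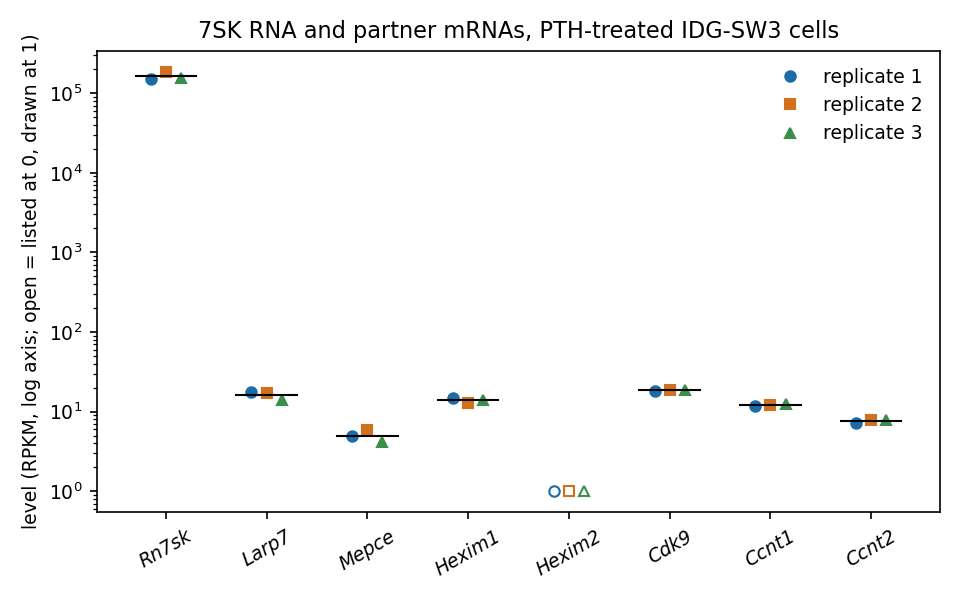
Level of each of the 8 genes in the 3 libraries, in RPKM on a log axis, with one point per library and a line at the mean. Rn7sk lay between 152373 and 186095 RPKM, the 6 partners with counts had means from 5.001 to 18.6 RPKM, and Hexim2 (open points) was listed at 0.

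**Figure D2:**
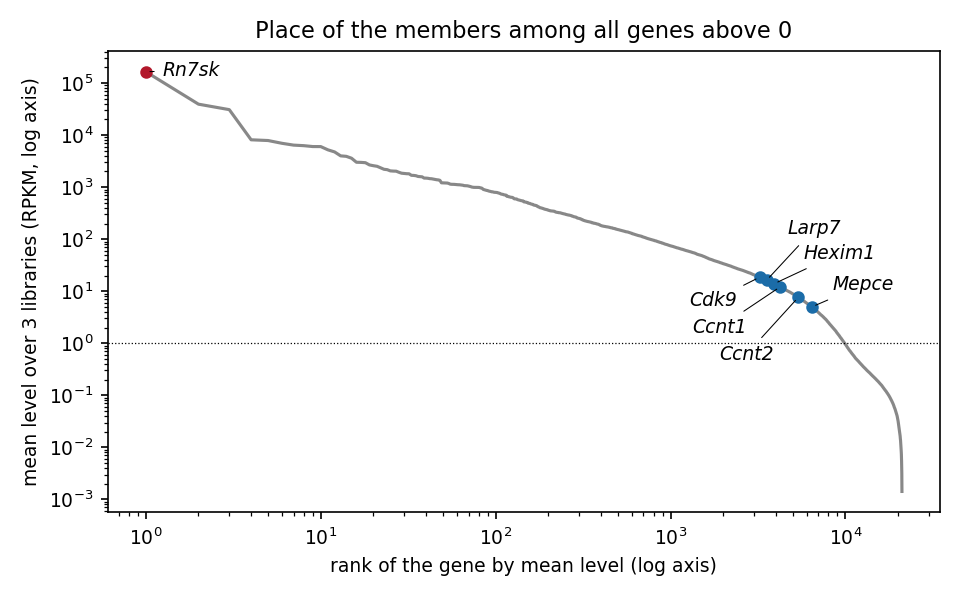
Mean level of every gene above 0 against its rank, both on log axes, with Rn7sk in red, the 6 partners with counts in blue and a dotted line at 1 RPKM. Rn7sk had rank 1 and the partners lay between rank 3236 (Cdk9) and rank 6424 (Mepce).

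The partner mRNAs, by contrast, were of moderate abundance and lay close to each other. Together the 7 partners had 8152, 8710 and 10229 counts, so that Rn7sk had 218, 264 and 228 counts for each count of a partner. The means of the 6 partners with counts spanned 5.001 to 18.6 RPKM, between percentiles 72.2 and 86.0 of the 23079 symbols with a length.

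Larp7 and Mepce encode the proteins that bind and cap 7SK itself. Larp7, which holds the 3′ end of 7SK, had 17.4, 17.1 and 14.1 RPKM in replicates 1, 2 and 3, a mean of 16.2 ± 1.81. It was lowest in replicate 3. Mepce, the methyltransferase of the 5′ end, had 4.88, 5.95 and 4.18 RPKM, a mean of 5.001 ± 0.892, and was the lowest of the partners with counts in every library. The level of Larp7 exceeded that of Mepce in 3 of 3 libraries, by 2.88-fold to 3.58-fold, with a log2 ratio of 1.71 ± 0.16. The Larp7 value carries the shared windows named above.

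Hexim1 and Hexim2 encode the inhibitors that bind P-TEFb when they are on 7SK, and they are direct neighbours on chromosome 11 in the RefSeq annotation, with 0 genes between them. Hexim1, which was first found through its induction by hexamethylene bisacetamide, had 14.8, 12.9 and 14.01 RPKM, a mean of 13.9 ± 0.955. It was lowest in replicate 2, the library in which Rn7sk was highest. Hexim2 was listed at 0 in all 3 libraries, each of its 3 rows included. That 0 is not read as absence. Of the 643 protein-coding symbols with 3 rows, 30.6% were at 0 in every library, against 2.66% of the 17270 with 1 row, and Hnrnpa1, an abundant protein gene of most cells with 2 rows, stood at 0.155 RPKM. No fold between Hexim1 and Hexim2 is given for that reason.

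The kinase gene Cdk9 and the cyclin genes Ccnt1 and Ccnt2 encode P-TEFb. Cdk9 had 18.4, 18.9 and 18.6 RPKM, a mean of 18.6 ± 0.295, the highest of the partners in every library. Ccnt1, whose product is also the cellular cofactor of HIV Tat, had 11.8, 12.2 and 12.4 RPKM, a mean of 12.1 ± 0.315. Ccnt2 had 7.28, 7.78 and 7.82 RPKM, a mean of 7.63 ± 0.304. These 3 mRNAs barely differed between libraries, and each had its lowest value in replicate 1. Ccnt1 exceeded Ccnt2 in 3 of 3 libraries, by 1.57-fold to 1.62-fold (log2 ratio 0.67 ± 0.02). The size of that ratio depends on the lengths taken, with a log2 ratio of 1.49 for the shortest and 0.30 for the longest transcripts.

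The levels of the subunits of P-TEFb could be added up and compared per length. Ccnt1 and Ccnt2 together stood at 1.04 to 1.08 times the level of Cdk9, a log2 ratio of 0.08 ± 0.03. Hexim1 alone, since the 0 of Hexim2 adds nothing to the sum, stood at 0.682 to 0.807 times the level of Cdk9, a log2 ratio of −0.42 ± 0.12. Against both cyclins together Hexim1 stood at 0.645 to 0.777 times, a log2 ratio of −0.51 ± 0.14. The ratios with cyclins hinge on the annotated lengths of their transcripts, since Ccnt1 has 2 basic transcripts of 2175 and 7397 bases. With the shortest transcripts the log2 ratio of cyclins to Cdk9 was 0.88, and with the longest it was reversed, at −0.32.

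The order of the partner levels was the same in all 3 libraries, with Cdk9 first, then Larp7, Hexim1, Ccnt1, Ccnt2 and Mepce. The ranges over the libraries were separate for 4 of the 5 neighbouring pairs. Larp7 and Hexim1 overlapped, since the lowest Larp7 value was 14.1 RPKM and the highest Hexim1 value was 14.8 RPKM, and these 2 do not differ beyond their spread. The gap between Cdk9 and Larp7 was narrow too, with a lowest Cdk9 value of 18.4 and a highest Larp7 value of 17.4 RPKM. With the shortest transcripts Ccnt1 moved from the fourth place to the first, at 26.7 RPKM, and with the longest the order was kept.

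Within each library, 7SK stood about 4 orders of magnitude above its partners per length. The ratio of Rn7sk to Cdk9 was 8304-fold to 9825-fold, and that to Larp7 was 8736-fold to 11011-fold. For Hexim1 it was 10287-fold to 14415-fold, and for Ccnt1 12562-fold to 15225-fold. For Ccnt2 it was 19901-fold to 23908-fold. The widest ratio was to Mepce, at 31238-fold to 37285-fold, a log2 ratio of 15.02 ± 0.15. The median over the 6 partners with counts was a log2 ratio of 13.63 ± 0.20, with 13.49, 13.85 and 13.53 in the 3 libraries. The ratios compare an RNA that acts itself with mRNAs that are templates, so they are no stoichiometry of the complex.

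**Figure D3:**
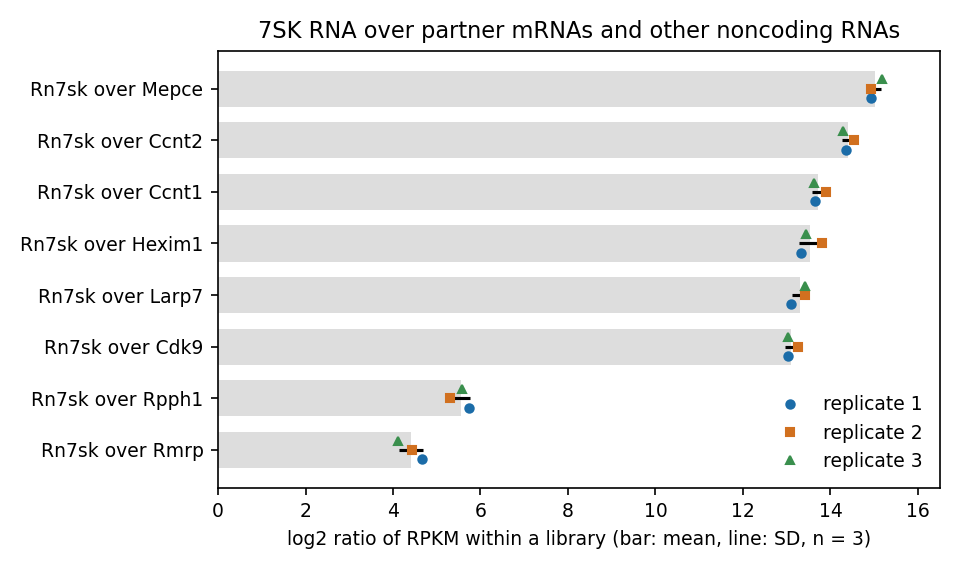
Log2 ratio of the RPKM of Rn7sk to that of each partner and of 2 other RNA polymerase III transcripts within each library; bars are means, lines are SD (n = 3) and points are libraries. The partners lie between 13.10 (Cdk9) and 15.02 (Mepce), Rpph1 at 5.55 and Rmrp at 4.41.

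Other noncoding RNAs came nearest to 7SK. By distance in log2(RPKM + 0.1) over the 3 libraries of the 1 condition, the closest symbols were Malat1 (distance 3.59), Rnu2, the U2 spliceosomal RNA (4.32), and Rnu1b6, a U1 spliceosomal RNA (7.54). Rnu2 stood at 30798 ± 9668 RPKM and Rnu1b6 at 8116 ± 1385. The distance of Malat1 rests on a median transcript length of 606 bases; with its longest transcript of 6983 bases its level was 3404 ± 448 RPKM in place of 39229 ± 5166. Rmrp, the RNA of RNase MRP, and Rpph1, the RNA of RNase P, come from the same kind of RNA polymerase III promoter as 7SK. Rn7sk exceeded Rmrp 17.4-fold to 25.2-fold (log2 ratio 4.41 ± 0.27), and Rpph1 39.8-fold to 53.5-fold (log2 ratio 5.55 ± 0.22). These distances and folds use annotated lengths, which are 191 bases for Rnu2, 166 for Rnu1b6 and 276 for Rmrp. Values by effective length are not given for them.

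Hexim1 and Cdk9 were surrounded by mRNAs of nearly equal level. Closest to Hexim1 were Cdh2 (N-cadherin, distance 0.05), the transcription factor gene Foxk2 (0.06) and 4632411B12Rik (0.07). Closest to Cdk9 were Cdr2l (0.02), the transcription factor gene Tbx15 (0.03) and Fam179b (0.04). These are likenesses of level over 3 libraries and say nothing about function.

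The spread between libraries differed from member to member. Each SD rests on 3 libraries and is itself uncertain, and differences in SD between members were not tested. On the log2 scale the SD of the level was 0.02 for Cdk9, 0.04 for Ccnt1 and 0.06 for Ccnt2, at percentiles 1.70, 4.56 and 10.0 of the SDs of 9659 genes with an average of at least 100 counts and none at 0. Their median SD was 0.17. Hexim1 had an SD of 0.10 (percentile 25.4), and Rn7sk and Larp7, with 0.16 and 0.17, lay near that median. Mepce varied most of the 7, with an SD of 0.26 (percentile 73.0). Rn7sk deviated from its mean by −0.11, 0.18 and −0.08 in replicates 1, 2 and 3, and Mepce by −0.02, 0.27 and −0.24, so both were highest in replicate 2. Rpph1 and Malat1 were also highest there, with deviations of 0.41 and 0.19, while Rmrp was highest in replicate 3 at 0.21. With totals scaled by the trimmed mean of M-values (TMM), Rn7sk again stood highest in replicate 2, at 0.21. Libraries of 1 group, 3 in number, do not allow a test of whether these RNAs move together.

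**Figure D4:**
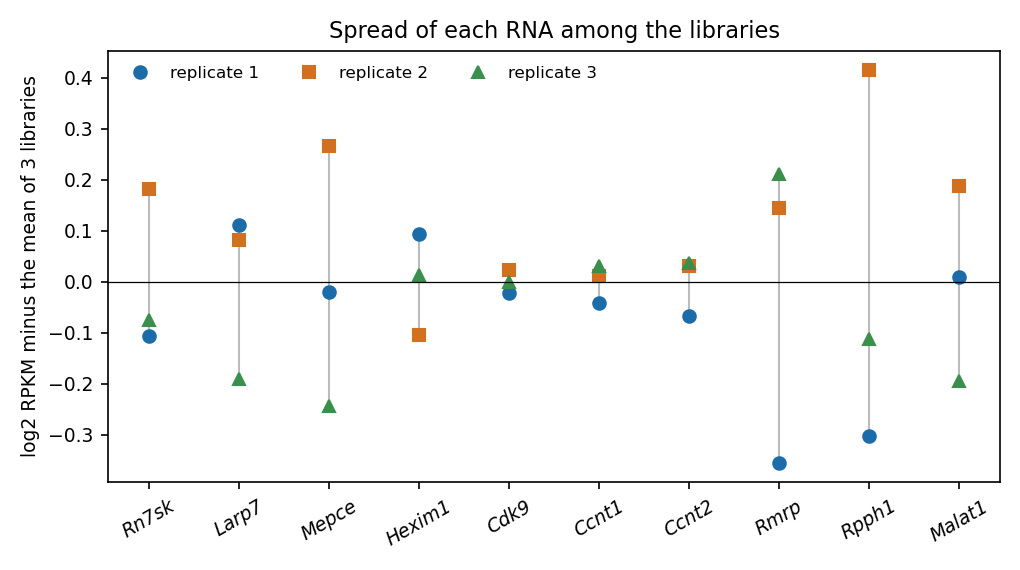
Log2 RPKM of each RNA in each library minus its mean over the 3 libraries, for the 7 members with counts and for Rmrp, Rpph1 and Malat1; points are libraries. Cdk9 and the cyclins lie within 0.07 of their means, Rn7sk and Mepce are highest in replicate 2.

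Most genes in lists drawn around 7SK and P-TEFb were above 1 RPKM in these libraries. The lists also take in other small noncoding RNAs and the subunits of RNA polymerases II and III. In 10 lists without any member, 116 symbols had a length, and each level was tested against 1 RPKM with edgeR's quasi-likelihood test, fitted over all 21043 genes above 0 in at least 1 library. Of the 116, 91 were above 1 RPKM, 9 below, 11 were not called and 5 were at 0. Over all genes tested, 43.2% were above and 13.5% below. The share below depends on the tool and the libraries, since the 2831 genes below were 268 with DESeq2, 9877 with limma, 1229 without replicate 1 and 917 without replicate 2. The median of the lists was 9.10 RPKM, beside 0.738 RPKM over all genes tested. Among the 90 list symbols with 1 row, 81 were above, beside 45.4% of all genes with 1 row (12.6% of those were below). All 9 list symbols below had several rows, so these low values are uncertain in the way that Hexim2 is. Several rows did not always go with a low value, since of the 26 list symbols with several rows 10 were above and 2 at 0. With DESeq2, 1 of these 9 calls was kept, that of Snapc4 in the list of RNA polymerase III transcription. It rests on 0, 2 and 0 counts in replicates 1, 2 and 3, and was lost with a count minimum of 10. With edgeR, 5 were kept without replicate 1, 5 without replicate 2 and 7 without replicate 3. Calls above that were lost with 1 library left out, named after their values were seen, were Whsc2 and Rny1 without replicate 3, Wdr61 without replicate 1, and Cdk13 without replicate 1 or 3.

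**Figure D5:**
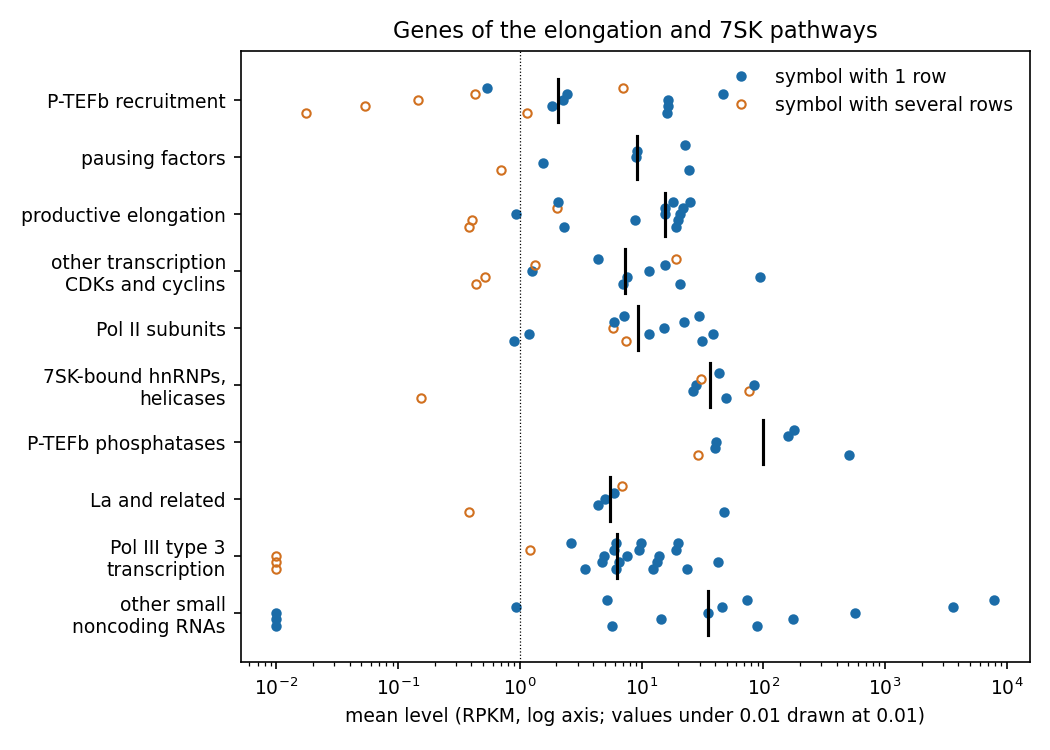
Mean level over 3 libraries of each gene of the 10 lists, in RPKM on a log axis; filled points are symbols with 1 row, open points symbols with several rows, vertical bars the medians of the lists and the dotted line 1 RPKM. The list medians run from 2.05 RPKM for P-TEFb recruitment to 100 RPKM for the phosphatases, and most points left of 1 RPKM are open.

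Factors that recruit or carry P-TEFb had 8 of 14 members above 1 RPKM and 3 below, with a median of 2.05 RPKM. Over all genes tested, 43.2% were above and 13.5% below. With DESeq2 the list had 5 above and 0 below, beside 7475 above and 268 below of all 21043 genes. Its share above with DESeq2 was thus near that of all genes. Aff4, the scaffold of the super elongation complex, had 43.8, 45.7 and 50.8 RPKM, a mean of 46.8 ± 3.64. Its partners Ell2 and Eaf1 stood at 16.4 ± 2.02 and 16.52 ± 2.54 RPKM, and Jmjd6, a hydroxylase gene, at 16.0 ± 1.29 RPKM. Among the members below were the bromodomain gene Brd2 (0.147 ± 0.0796) and Aff1 (0.0537 ± 0.00971), a relative of Aff4, each with 2 rows. Without replicate 2 the call of Brd2 was lost (edgeR adjusted p = 0.0535).

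Pausing factors, the substrates that P-TEFb acts on at promoters, had 5 of 6 members above 1 RPKM, beside 43.2% of all genes tested. The median of the list was 9.10 RPKM. Supt4h1 and Supt5h encode the subunits of DSIF, and stood at 24.4 ± 3.70 and 8.95 ± 0.724 RPKM. Of the NELF subunits, Cobra1 (NELF-B) stood at 22.8 ± 2.85 and Th1l (NELF-C/D) at 9.24 ± 0.375 RPKM. The member not called was Rdbp (NELF-E), named after its values were seen, which has 3 rows and had 0.0203, 1.59 and 0.490 RPKM.

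Productive elongation factors had 12 of 15 members above and 2 below, beside 43.2% above and 13.5% below of all genes tested. The share below was thus near that of all genes. The median of the list was 15.5 RPKM. The histone chaperone gene Supt16h stood at 25.1 ± 2.74, the histone methyltransferase gene Setd2 at 21.98 ± 1.75, Ctr9 of the PAF1 complex at 20.7 ± 0.811 and Spty2d1 at 19.8 ± 1.99 RPKM. Ssrp1, which pairs with Supt16h in the FACT complex, was below at 0.407 ± 0.160 (2 rows), and Tcea1 (TFIIS) at 0.379 ± 0.329 (3 rows). The call of Ssrp1 was lost without any 1 library (edgeR adjusted p = 0.092, 0.136 and 0.0759 without replicates 1, 2 and 3), and that of Tcea1 without replicate 1 or 2 (edgeR adjusted p = 0.177 and 0.144).

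Other kinases and cyclins of transcription had 9 of 12 members above and 2 below, beside 43.2% and 13.5% of all genes tested. Cdk7, the kinase of TFIIH that acts before Cdk9, stood at 94.8 ± 5.65 RPKM, and its partners Mnat1 and Ccnh at 20.5 ± 2.21 and 15.7 ± 2.17. Ccnc, the cyclin of the Mediator kinases, stood at 19.2 ± 6.81 (2 rows). The kinase genes Cdk12 and Cdk19 were below at 0.435 ± 0.130 (3 rows) and 0.515 ± 0.0996 (2 rows), and without replicate 1 the call of Cdk19 was lost (edgeR adjusted p = 0.0701). RNA polymerase II itself had 10 of 12 subunit genes above, beside the same 43.2% of all genes tested. Polr2h, Polr2j, Polr2b and Polr2g stood highest, at 38.8 ± 5.98, 31.4 ± 5.11, 29.8 ± 1.31 and 22.1 ± 3.28 RPKM.

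Proteins that hold 7SK when P-TEFb has left, with RNA helicases known to free P-TEFb, had 7 of 8 members above. Of all genes tested, 43.2% were above. The median of the list was 36.8 RPKM. Rbm7, which binds the 7SK complex under genotoxic stress in human cells, stood at 83.7 ± 5.81, Syncrip (hnRNP Q) at 76.3 ± 8.87 (2 rows), Hnrnpr at 49.3 ± 2.94 and the helicase gene Ddx21 at 43.0 ± 1.49 RPKM. Hnrnpa1, the member not called and named after its values were seen, has 2 rows and stood at 0.155 ± 0.122 RPKM. The list of P-TEFb phosphatases had 6 of 6 members above, beside the same 43.2%, and the highest median of the lists, 100 RPKM. The catalytic subunits Ppp1cb, Ppp1ca and Ppp1cc stood at 507 ± 22.3, 179 ± 10.9 and 160 ± 8.29 RPKM, and Ppm1a at 40.6 ± 1.07.

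La and its relatives, the family of Larp7, had 5 of 6 members above and 1 below. The shares over all genes tested were 43.2% above and 13.5% below. Larp4b stood at 47.9 ± 1.14 RPKM, the La gene Ssb, whose product binds new RNA polymerase III transcripts, at 6.89 ± 0.248 (2 rows), Larp1 at 5.94 ± 0.784 and Larp6, which binds collagen mRNAs, at 5.01 ± 0.848. Larp4 was called below at 0.382 ± 0.167 (2 rows), a call lost with the shortest transcripts and with DESeq2. In level, Larp7 lay between Larp4b and Ssb.

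The machinery that transcribes 7SK had 18 of 22 members above 1 RPKM and 1 below, beside 43.2% and 13.5% of all genes tested. The median of the list was 6.35 RPKM. All 18 members with 1 row were above, beside 45.4% of all genes with 1 row. Polr3f and Polr3k, subunits of RNA polymerase III, stood at 42.2 ± 1.56 and 23.7 ± 1.78 RPKM, Snapc3, of the complex that binds the 7SK and snRNA promoters, at 19.9 ± 1.76, and Crcp, a further subunit, at 19.4 ± 2.32. Snapc4 was called below with 0, 2 and 0 counts in its 2 rows, and without replicate 1 or 3 the call was lost (edgeR adjusted p = 0.258 and 0.167); without replicate 2 it had no counts. The members at 0, named after their values were seen, were Pou2f1 (4 rows) and Polr3e (2 rows).

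Other small noncoding RNAs were listed at very different levels, with 11 of 15 above, beside 43.2% of all genes tested. Of the rest, 1 was not called and 3 were at 0. The median of the list was 34.9 RPKM. Rmrp had 6053, 8556 and 8952 RPKM in replicates 1, 2 and 3, and Rpph1 had 2850, 4679 and 3250 RPKM. Rnu1b1, a U1 gene, stood at 568 ± 156 and the Y RNA Rny3 at 174 ± 56.2 RPKM. The 3 at 0, named after their values were seen, were Rnu73b, Rnu1a1 and Rnu5g, each with 1 row. How reads that match several genes were counted is not known, so these 0 values are not read as absence. By annotated length, Rn7sk exceeded every one of the 15 in all 3 libraries. Levels by effective length are not given for these 15.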

How the data were processed

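The authors deposited 1 table per library of 30795 rows, whose integers were used as raw counts. The file names say RPKM, but the products of value and length in kilobases add up to 111227355, 118329990 and 144755282 over the libraries, far more than RPKM would allow. Per the submitters' processing notes, TopHat and mouse build mm9 were used; no source used here gives the counter, its annotation or whether it used strand, though the library kit was directional per the labels. Every row carried a symbol.

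Rows of a symbol were summed. Lengths were medians over GENCODE M21 basic transcripts (GRCm38), matched for 20840 symbols directly and for 2239 through RefSeq synonyms, leaving out 2331. No positions are printed, since the builds differ. Levels were tested two-sided against 1 RPKM with edgeR 4.0.16 (quasi-likelihood F test, trended dispersion, robust estimation, Poisson bound, Benjamini-Hochberg threshold 0.05) in R 4.3.3. With an intercept alone, F was derived from the fitted model. This procedure was run on simulated data whose set levels left out genes with low expected counts, so calls for such genes were not checked. Alternatives were limma 3.58.1 on log2(RPKM + pseudocount), DESeq2 1.42.0 (uncentred factors), TMM totals, totals without Rn7sk, other lengths, a count minimum of 10 and each library left out. Copies of 7SK were sought with blastn 2.17.0.

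The members and lists were chosen with earlier results of these data known. Named genes were all members, up to 4 genes per list with the highest mean, every list gene below 1 RPKM (1 of them is not reported here), and the 3 genes nearest in level to Rn7sk, Hexim1 and Cdk9.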

Additional observations from a re-analysis of the deposited data

How the results depend on the processing

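No paired analysis was possible because the 3 libraries form 1 group. With an effective length the level of Rn7sk was 299588 RPKM, by construction. The median log2 ratio of Rn7sk to its partners was 13.42 with the shortest transcripts, 13.94 with the longest and 14.43 with the effective length. The log2 ratio of Ccnt1 to Ccnt2 was 1.49 with the shortest and 0.30 with the longest transcripts, that of Hexim1 to the cyclins −1.38 and −0.034, and that of the cyclins to Cdk9 0.88 and, reversed, −0.32, all by construction from the lengths. Larp7, Mepce and Hexim1 have 1 basic transcript each, and these genes and Cdk9 have 1 row each. The ratio of Larp7 to Mepce therefore could not move with either length or with the mean over rows. That of Hexim1 to Cdk9 moved by less than 1 SD under both lengths, through the lengths of Cdk9 alone. With the mean over rows it could not move. Genes below 1 RPKM numbered 2831, and 268 with DESeq2, 9877 with limma and 9910 with limma and a pseudocount of 1; the cause was not tested. With 1 library left out they numbered 917 to 2570, with fewer samples, while those above numbered 8907 to 9020. List genes below numbered 9, and 5 to 7 with 1 library left out and 1 with DESeq2. List genes above stayed between 82 (DESeq2) and 91 under the alternatives run. With DESeq2, P-TEFb recruitment had 5 of its 8 and productive elongation 9 of its 12. What limits Hexim2 and other symbols at 0 was not tested.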

Other observations

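Some genes lie inside the genes of the partners. The miRNA genes Mir302a, Mir302b, Mir302c, Mir302d and Mir367, known from pluripotent cells, lie within Larp7 on the other strand in the annotation, and each was listed at 0 in all 3 libraries. Mir2861 and Mir3960, known from osteoblast differentiation in mouse, are annotated within Cdk9 on its strand and were not analysed here. Libraries of this kind are not made to hold mature miRNAs, so a 0 says little about them.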
